A study of Rattus norvegicus with 9 samples.

Results

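The genes described here are the collagens and the proteins that modify, fold, cleave and cross-link them, measured in rat ventral midbrain of the embryo and in primary cultures grown from it. They were taken by symbol: every gene named Col followed by a number, the prolyl 4-hydroxylase genes P4ha1, P4ha2 and P4hb, the prolyl 3-hydroxylase family P3h, the lysyl hydroxylases Plod1 to Plod3, the lysyl oxidases Lox, Loxl1 and Loxl2, and Serpinh1, Pcolce and Sparc. Of 10411 genes with a probe set of their own on the array, 43 met this rule, 29 of them collagens and 14 processing genes. RefSeq's table for the rat lists 44 collagen genes, so 15 were not analysed here, and neither were Loxl2 and P3h2. A gene with more than 1 probe set was read from its brightest, by the mean of the 9 arrays.

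The tissue group, MesE11, was ventral midbrain of embryonic day 11 rats, with 3 arrays. In the culture group, MesPC, with 6 arrays, cells of such midbrains had been dissociated and kept for 9 days in vitro. Per the labels, embryos of 4 rats were mixed into 3 groups that were handled apart, and each group gave a pool of tissue and duplicate cultures. The labels also speak of 3 independent culture samples, so the 6 culture arrays may stand for fewer than 6 independent cultures, and p-values speak of the spread among arrays alone. No strain, genotype or treatment is named, and the question is how the cultures compare with the tissue they came from.

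Collagens are trimers of chains that wind into a triple helix, and the chain genes fall into classes by the assembly they build. Fibrillar collagens (types I, II, III, V, XI, XXIV and XXVII) form the banded fibrils of connective tissue, network collagens (IV, VIII and X) form sheets such as the scaffold of basement membranes, type VI forms beaded filaments, and FACIT collagens sit on the surface of fibrils. In the endoplasmic reticulum, prolyl and lysyl hydroxylases modify the chains and the chaperone Hsp47, made from Serpinh1, holds the folded helix. Outside the cell, proteinases trim the ends and lysyl oxidases cross-link the product. In the brain, fibrillar collagens are found chiefly in meninges and vessel walls, and type IV collagen in the basement membranes of vessels and the pial surface.

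Values are log2 intensities made by the authors with RMA, differences are MesPC minus MesE11 on that scale, and errors are moderated standard errors from 3 and 6 arrays unless stated otherwise. A gene was called where its adjusted p in limma was under 0.05. The number of arrays limits the precision. Across probe sets, culture arrays 1 to 3 resembled each other (Pearson's r 0.9975 to 0.9978) and so did arrays 4 to 6 (0.9972 to 0.9977), while r between these sets was 0.9821 to 0.9867; the labels name nothing that parts them. A fit that let arrays of a set be correlated stands beside the main one below as the random block. It took the tissue arrays as a set too and used a single correlation for all probe sets, an estimated 0.447. The correlation was not fitted gene by gene, so it may be too low for genes whose culture sets lie far apart. Probe sets for bacterial genes, which rat RNA should not light up, read 4.80 to 6.68, and levels in that range are treated as near background. Th and Foxa2, markers of the ventral midbrain, had means of 11.53 and 9.61 in MesE11 and 8.45 and 9.77 in MesPC.

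In culture, 16 of 29 collagen genes and 12 of 14 processing genes were higher than in tissue, whereas 4 collagens and 0 processing genes were lower. Over all genes 21.9% were higher and 22.7% lower. Rises of at least 1 log2 unit, which is a doubling, were found for 13 collagens and 8 processing genes, against 3.63% of all genes. The 13 include Col11a1, which lay within the bacterial control range on every array. A fall of that size was found for 1 collagen, Col2a1, against 2.13% of all genes. Culture arrays were above tissue arrays without overlap for 28 of the 43 genes (21.1% of all genes) and below without overlap for 3 (23.3%). With the random block 14 collagens and 10 processing genes were higher (13.2% of all genes) and 1 collagen was lower (9.11%). The median difference was 0.75 for the collagens, 1.19 for the processing genes and −0.06 for all genes. The collagen median depended on the culture set: it was 1.05 with arrays 1 to 3 alone and 0.47 with arrays 4 to 6 alone. That of the processing genes was 1.14 and 1.03, but single processing genes did differ between the sets. The sets did not overlap for 10 of the 14, against 13 of 29 collagens and 48.4% of all genes. Since the samples are bulk RNA, more cells that make collagen and more RNA per cell cannot be told apart.

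**Figure D1:**
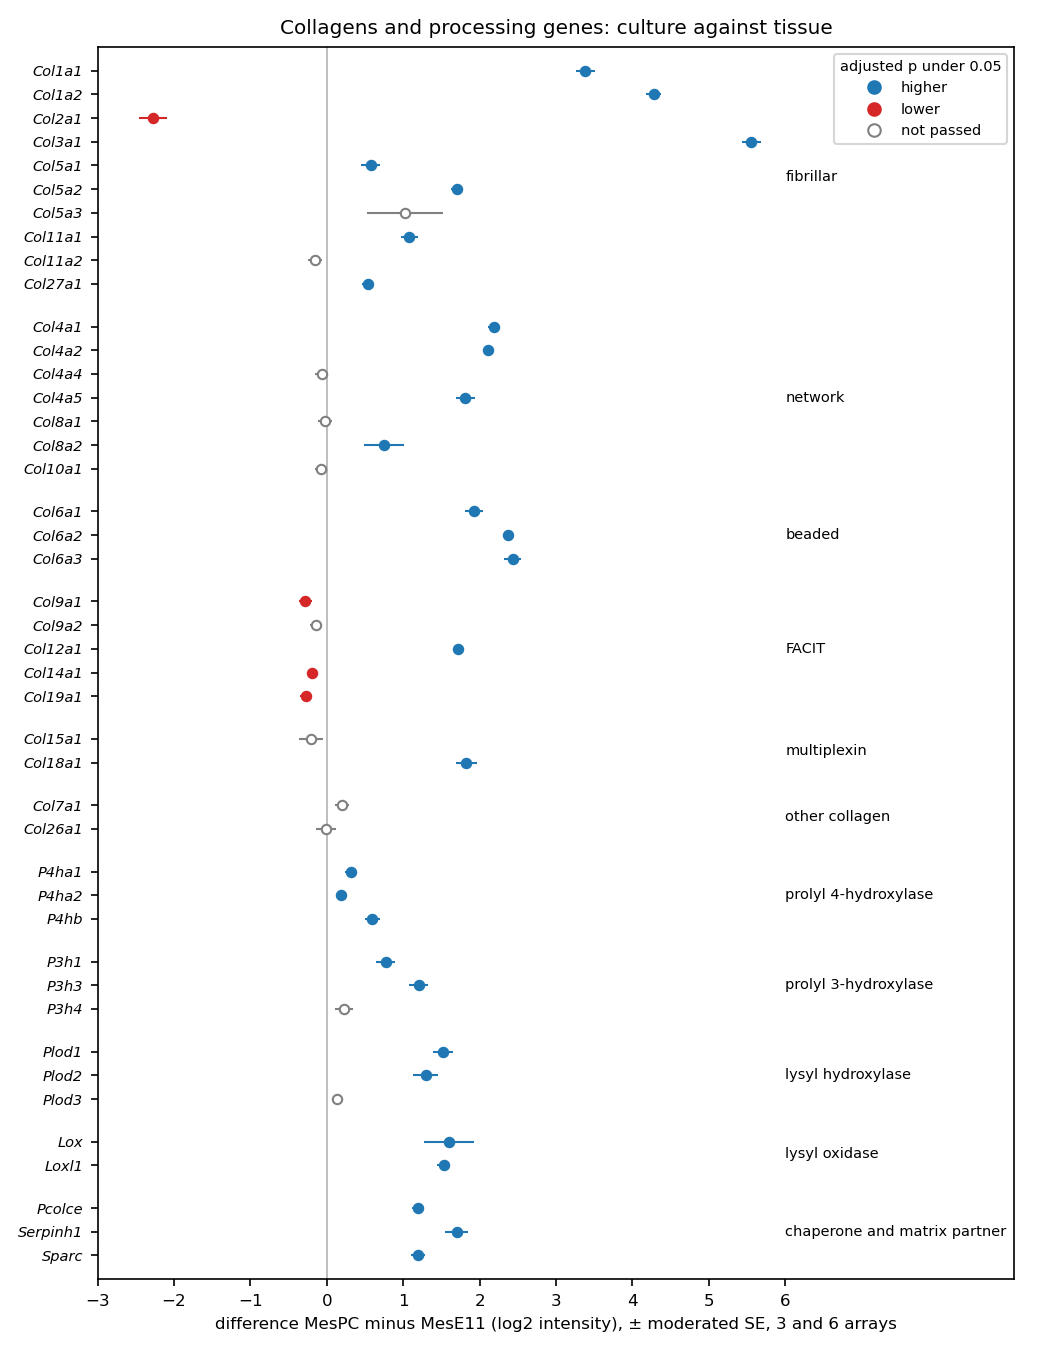
Difference between MesPC and MesE11 on the log2 scale for each of the 43 genes, by class, with bars of 1 moderated standard error; filled blue and red points passed the adjusted p threshold as higher and lower, open points did not pass. The rises reach from 0.19 (P4ha2) to 5.56 (Col3a1). The 3 type VI chains lie together at 1.93 to 2.43, and the FACIT class holds 1 rise beside 3 small falls.

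By class, fibrillar collagens were higher in 7 of 10 cases and lower in 1 (median 1.05), network collagens higher in 4 of 7 and lower in 0 (0.75), beaded type VI chains higher in 3 of 3 (2.37), and FACIT collagens higher in 1 of 5 and lower in 3 (−0.19). With the random block these counts were 6 and 1, 3 and 0, 3 and 0, and 1 and 0. With arrays 1 to 3 alone and 4 to 6 alone the medians were 1.40 and 0.80 (fibrillar), 1.21 and 0.29 (network), 2.36 and 2.30 (beaded), and −0.21 and −0.21 (FACIT). Over all genes 21.9% were higher and 22.7% lower, or 13.2% and 9.11% with the random block. The calls of Col11a1 (fibrillar), Col8a2 (network) and Col9a1 (FACIT) rest on group means within the bacterial control range. The difference between classes was not tested, and each class holds few genes.

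Among the fibrillar collagens, types I and III rose most. Col3a1, the only chain of type III, a collagen of extensible tissues, read 7.91, 7.30 and 7.33 in tissue and 12.97 to 13.17 in culture (median 13.06). That is 47.1-fold, a difference of 5.56 ± 0.13 (adjusted p = 1.9e-09). Col1a2, the alpha-2 chain of type I, the main collagen of skin, tendon and bone, read 8.40, 8.04 and 7.98 in tissue and 12.26 to 12.57 in culture (median 12.45). It rose 19.4-fold, by 4.28 ± 0.10. Col1a1, the partner chain, read 9.13, 8.83 and 8.46 in tissue and 12.08 to 12.39 in culture (median 12.17), a rise of 3.39 ± 0.13. Its dimmer probe set rose by 5.60 ± 0.18, so the size of the Col1a1 rise depends on the probe set read. For these 3 genes no culture array came near a tissue array, and culture arrays 1 to 3 and 4 to 6 overlapped. The differences were 5.55 and 5.57 for Col3a1, 4.21 and 4.35 for Col1a2, and 3.31 and 3.46 for Col1a1 with arrays 1 to 3 alone and 4 to 6 alone.

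Of the 43 genes, 36 had a promoter window in RefSeq's table for the rat assembly GRCr8, and Col1a1, Col2a1, Col3a1, Col6a2, Col12a1, Col14a1 and Lox did not. Windows of 250 bases before the annotated start were searched on both strands for CCAAT, for GGGCGG, for TATAAA and for GAANNTTC, a core of the heat shock element. Col1a2 is shown because it had the largest rise among the genes with a window. The stretch lies at chr4:33518307-33518416 on the plus strand of GRCr8. The annotated start lies well downstream of the TATAAA match, so bases before it may be transcribed, and distances here refer to the annotation alone. Capitals mark a CCAAT match, read here from the other strand, that begins 221 bases before the annotated start, and a TATAAA match that begins 170 bases before it.
Col1a2: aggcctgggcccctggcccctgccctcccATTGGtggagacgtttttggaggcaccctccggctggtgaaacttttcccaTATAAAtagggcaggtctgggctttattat
A TATAAA match was present in 2 of the 23 collagen windows, those of Col1a2 and Col10a1, and in 13.1% of 27457 promoters of the same length. CCAAT was present in 6 of 23 (34.3% of all promoters), and Col1a2 was the only one of the type I, III and VI genes with a window that held it. Here and below, the share over all promoters was not limited to genes on the array, so it is no matched background. These matches are descriptions of letters and not binding sites.

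Type V collagen, which sets the width of type I fibrils, rose in 2 of its 3 chains. Col5a2 read 9.96, 10.00 and 9.69 in tissue and 11.49 to 11.73 in culture (median 11.57), a rise of 1.70 ± 0.08. Col5a1 read 9.68, 9.57 and 10.21 in tissue and 10.26 to 10.55 in culture (median 10.38). The groups lay close, and the rise of 0.57 ± 0.13 (adjusted p = 0.0055) was not called with the random block (adjusted p = 0.081). A dimmer probe set of Col5a1 rose by 1.48 ± 0.12 and kept its call with the random block (adjusted p = 3.9e-04). Col5a3 behaved differently in the 2 sets of culture arrays. It read 8.08, 8.19 and 8.05 in tissue, between 9.76 and 10.29 in the first culture set (arrays 1 to 3), and between 8.14 and 8.32 in the second (arrays 4 to 6). Over all 6 culture arrays it did not pass (1.02 ± 0.50, adjusted p = 0.12). Against tissue, arrays 1 to 3 alone differed by 1.91 (adjusted p = 7.5e-07) and arrays 4 to 6 alone by 0.13 (adjusted p = 0.17).

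Col2a1, the chain of type II collagen and the main collagen of cartilage, was the fibrillar gene that fell. It read 10.44, 10.51 and 10.39 in tissue, between 8.09 and 8.61 in the first culture set and between 7.81 and 8.03 in the second. Every culture array lay below every tissue array, with a difference of −2.28 ± 0.18 (4.84-fold lower, adjusted p = 1.1e-05). The dimmer probe set of Col2a1 changed by −0.29 ± 0.09 (adjusted p = 0.035), with arrays that overlapped between groups and no call with the random block (adjusted p = 0.21). Type XI, which shares fibrils with type II, gave no such fall. Col11a1 read 5.23, 5.06 and 5.33 in tissue and 5.95 to 6.45 in culture (median 6.32), a rise of 1.08 ± 0.11, but no array left the range of the bacterial controls and its further probe set did not pass (0.02 ± 0.05, adjusted p = 0.80). Col11a2 did not pass (−0.16 ± 0.09, adjusted p = 0.18). Col27a1, a fibrillar collagen of growing cartilage, rose by 0.54 ± 0.08, from 8.13 to 8.46 in tissue to 8.73 to 8.95 in culture.

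The main chains of the basement membrane collagen rose together. Col4a1 and Col4a2, whose products join as 2 alpha-1 chains and 1 alpha-2 chain in most basement membranes, rose by 2.19 ± 0.08 and 2.11 ± 0.06. Col4a1 read 9.15, 9.10 and 9.34 in tissue and 11.28 to 11.56 in culture (median 11.37), and a further probe set rose by 2.49 ± 0.08. Col4a2 read 9.93, 9.87 and 9.91 in tissue and 11.92 to 12.13 in culture (median 11.98). Neither gene had a culture array within 1 log2 unit of its tissue arrays. Col4a5, a chain of the basement membranes of kidney glomerulus, lung and some epithelia, read 9.09, 9.52 and 9.00 in tissue and 10.80 to 11.24 in culture (median 11.02), a rise of 1.81 ± 0.13. Col4a4, which is found with Col4a3 and Col4a5 products in the glomerulus, stayed near background, with 6.37, 6.02 and 6.41 in tissue and 6.13 to 6.28 in culture (median 6.21). It did not pass (−0.07 ± 0.08, adjusted p = 0.53; without MesE11 replicate 2, −0.19 and adjusted p = 0.034).

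Col4a1 and Col4a2 lie head to head and are read away from each other. The stretch between their annotated starts is shown because both genes share it. It spans chr16:84885521-84885596 of GRCr8, 76 bases, written on the plus strand, the strand of Col4a1. Capitals mark a GGGCGG match read from the other strand.
Col4a1-Col4a2: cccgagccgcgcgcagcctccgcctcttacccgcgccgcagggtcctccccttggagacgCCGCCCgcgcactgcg
GGGCGG was present in 12 of the 23 collagen windows and 9 of the 13 processing windows, against 32.4% of all promoters. Those promoters were not limited to genes on the array. The windows of Col4a1 and Col4a2 overlap, so they share matches and are not independent.

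The other network collagens varied. Col8a2, a chain of type VIII, the short-chain network of vascular and corneal endothelium, read 5.85, 5.96 and 5.94 in tissue, between 7.03 and 7.22 in the first culture set and between 6.13 and 6.31 in the second. All culture arrays lay above tissue, yet the call (0.75 ± 0.26, adjusted p = 0.042) ended with the random block (adjusted p = 0.066), without any 1 tissue array (adjusted p 0.092 to 0.12) and without MesPC replicate 1, 2 or 3 (0.059 to 0.073). With arrays 1 to 3 alone Col8a2 rose by 1.21, with 4 to 6 alone by 0.29. Its tissue mean, 5.92, was inside the bacterial control range. Col8a1, its partner chain, did not pass (−0.02 ± 0.09, adjusted p = 0.85), and Col10a1, the collagen of hypertrophic cartilage, lay within the bacterial control range on every array and did not pass either (−0.08 ± 0.07, adjusted p = 0.40).

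The 3 measured chains of type VI collagen, which forms beaded filaments around cells of connective tissue, rose by similar amounts. Col6a1 read 8.33, 7.98 and 8.42 in tissue and 10.03 to 10.39 in culture (median 10.12), a rise of 1.93 ± 0.11. Col6a2 read 7.75, 7.78 and 7.90 in tissue and 10.04 to 10.29 in culture (median 10.19), a rise of 2.37 ± 0.07. Col6a3 read 7.55, 7.57 and 7.89 in tissue and 9.91 to 10.26 in culture (median 10.12), a rise of 2.43 ± 0.11. No culture array lay below 9.91 and no tissue array above 8.42 in any of the 3. A further probe set of Col6a2 did not pass (−0.13 ± 0.10, adjusted p = 0.32), with means of 8.13 and 8.01, so this rise rests on 1 of 2 probe sets.

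Of the FACIT collagens, Col12a1 alone was higher in culture. Col12a1, whose product bridges type I fibrils in dense connective tissue, read 7.89, 7.79 and 7.60 in tissue and 9.39 to 9.58 in culture (median 9.51), a rise of 1.72 ± 0.07, and its further probe set rose by 0.64 ± 0.14. Col14a1, its closest relative, changed the other way by −0.19 ± 0.05 (adjusted p = 0.013), from 7.54 to 7.57 in tissue to 7.27 to 7.40 in culture. Col19a1, a rare FACIT of muscle and neurons, changed by −0.27 ± 0.08 (adjusted p = 0.020) and Col9a1, of cartilage, by −0.28 ± 0.08 (adjusted p = 0.021). The calls of these 3 falls ended with the random block (adjusted p = 0.16, 0.18 and 0.19) and under a second quantile normalization (adjusted p = 0.12, 0.12 and 0.099). Col19a1 also lost its call without MesE11 replicate 2 (adjusted p = 0.087), and Col9a1, with a tissue mean of 6.63 in the bacterial control range, without MesE11 replicate 1 (0.078) or 3 (0.094). Col9a2 did not pass (−0.14 ± 0.08, adjusted p = 0.15).

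The multiplexins, basement membrane collagens that also carry sugar chains, differed from each other. Col18a1, the source of endostatin, read 8.60, 8.46 and 8.47 in tissue, between 10.42 and 10.79 in the first culture set and between 10.06 and 10.24 in the second, a rise of 1.83 ± 0.14 (3.55-fold). A further probe set of Col18a1 rose by 3.01 ± 0.17. Col15a1, found in vessel and muscle basement membranes, did not pass (−0.20 ± 0.16, adjusted p = 0.30). The first culture set, between 9.15 and 9.56, lay around the tissue values of 9.18 to 9.46, and the second, between 8.82 and 8.88, lay below them; arrays 4 to 6 alone differed by −0.43 (adjusted p = 0.0014). Col7a1, of the anchoring fibrils of skin, did not pass (0.20 ± 0.09, adjusted p = 0.11), though it did without MesPC replicate 3 (0.25, adjusted p = 0.042). Col26a1 did not pass either (−0.01 ± 0.13, adjusted p = 0.94): arrays 1 to 3, at 9.14 to 9.25, lay above its tissue values of 8.95 to 9.03, and arrays 4 to 6, at 8.69 to 8.84, lay below.

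**Figure D2:**
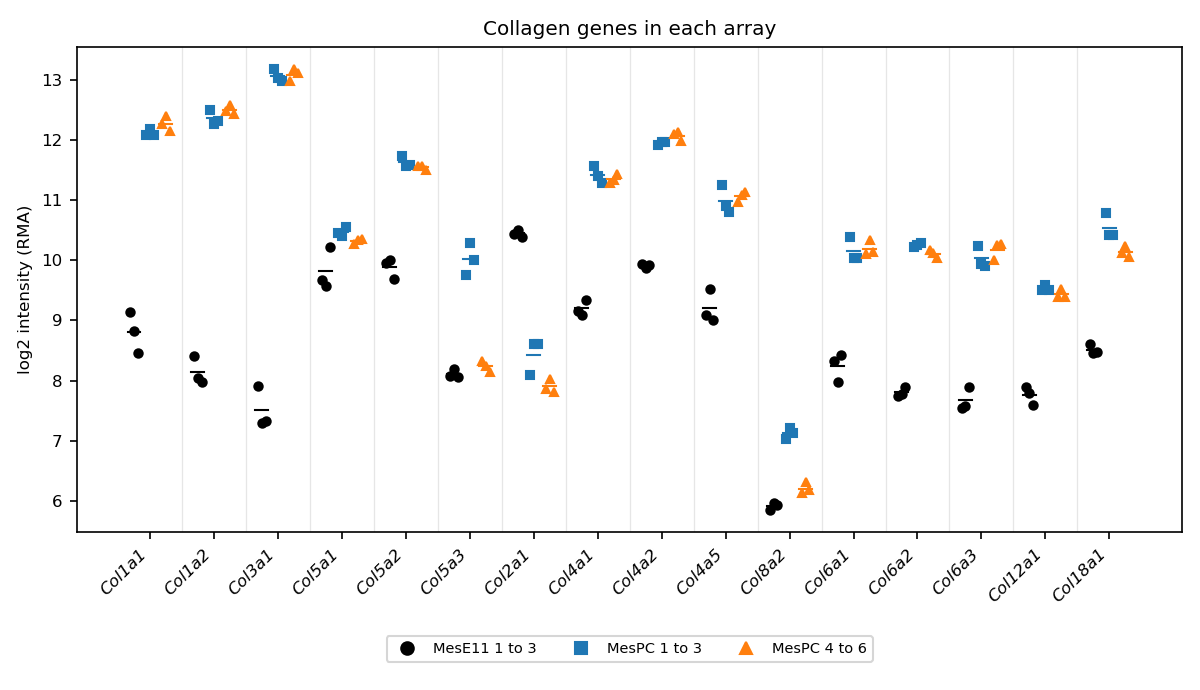
Log2 intensity of 16 collagen genes in every array, with black circles for MesE11, blue squares for MesPC replicates 1 to 3 and orange triangles for MesPC replicates 4 to 6; short lines are means of 3 arrays. For Col1a1, Col1a2 and Col3a1 both culture sets lie far above tissue, Col2a1 lies below tissue in both, and for Col5a3 the orange triangles (8.14 to 8.32) lie by the tissue values while the blue squares (9.76 to 10.29) lie well above.

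Culture arrays 1 to 3 and 4 to 6 did not overlap for 23 of the 43 genes, near the 48.4% found over all genes. By part, they were 13 of 29 collagens and 10 of 14 processing genes. Arrays 1 to 3 were the higher set for 19 of these 23 and arrays 4 to 6 for 4, namely Col4a2, Col7a1, P3h3 and Plod1. Over all genes arrays 1 to 3 were the higher set for 2705 and arrays 4 to 6 for 2329. The largest gaps between set means among the members were those of Col5a3 (1.78), Lox (1.15) and Col8a2 (0.92). With arrays 1 to 3 alone, 18 collagens were higher and 3 lower (25.7% and 27% of all genes). With arrays 4 to 6 alone, 17 were higher and 6 lower (22.9% and 27.2% of all genes).

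The prolyl 4-hydroxylase genes, whose enzyme makes the hydroxyproline that keeps the triple helix stable, rose little. P4hb, the beta subunit, which is also protein disulfide isomerase, read 11.71, 11.77 and 11.59 in tissue and 12.05 to 12.48 in culture (median 12.28), a rise of 0.59 ± 0.10 (1.51-fold, adjusted p = 0.0011). P4ha1, the main catalytic subunit, read 9.57, 9.40 and 9.41 in tissue and 9.60 to 9.84 in culture (median 9.79). Its rise of 0.31 ± 0.07 (adjusted p = 0.0052) was not called with the random block (adjusted p = 0.067). P4ha2, the other catalytic subunit, read 8.48, 8.44 and 8.45 in tissue and 8.50 to 8.73 in culture (median 8.67). The call of P4ha2 (0.19 ± 0.06, adjusted p = 0.037) was fragile: it ended with the random block (adjusted p = 0.27), without any 1 tissue array (0.073 to 0.098), and without any 1 culture array but MesPC replicate 3 or 6 (0.054 to 0.069). A further probe set of P4ha2 did not pass (−0.20 ± 0.08, adjusted p = 0.065), and the mean of both differed by −0.01.

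The prolyl 3-hydroxylase family modifies a few prolines per chain. P3h1, the enzyme that works in a complex with Crtap and cyclophilin B, read 7.73, 7.75 and 7.59 in tissue and 8.13 to 8.73 in culture (median 8.51), a rise of 0.77 ± 0.12. P3h3 read 8.04, 7.86 and 7.92 in tissue, between 8.91 and 9.07 in the first culture set and between 9.17 and 9.51 in the second, a rise of 1.20 ± 0.12 (2.30-fold). P3h4, which lacks hydroxylase activity of its own and serves lysine hydroxylation, read 7.83, 7.92 and 7.66 in tissue and 7.85 to 8.41 in culture (median 7.97) and did not pass (0.23 ± 0.12, adjusted p = 0.14), though it did with arrays 1 to 3 alone (0.37, adjusted p = 0.017).

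Lysyl hydroxylases, which prepare lysines for cross-links and sugars, rose in 2 of 3 cases. Plod1, which acts on lysines of the helix, read 8.51, 8.44 and 8.34 in tissue, between 9.63 and 9.83 in the first culture set and between 10.11 and 10.21 in the second. It rose by 1.52 ± 0.14 (2.87-fold, adjusted p = 2.1e-05). Plod2, which acts on the telopeptides at the chain ends, read 9.01, 9.13 and 8.81 in tissue, between 10.45 and 10.59 in the first culture set and between 9.98 and 10.08 in the second. It rose by 1.29 ± 0.16 (2.45-fold, adjusted p = 1.9e-04). Both genes lay above tissue on every culture array, but the sets of culture arrays were ordered the opposite way, arrays 4 to 6 being higher for Plod1 and lower for Plod2. Plod3, which also adds sugars to hydroxylysine, read 10.42, 10.49 and 10.41 in tissue and 10.46 to 10.67 in culture (median 10.59) and did not pass (0.14 ± 0.06, adjusted p = 0.079; without MesPC replicate 4, 0.16 and adjusted p = 0.036).

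Both measured lysyl oxidases, the extracellular enzymes that start cross-linking, rose. Loxl1, which is best known for its part in elastic fibres, read 8.49, 8.57 and 8.61 in tissue and 9.96 to 10.34 in culture (median 10.06), a rise of 1.53 ± 0.08 (2.88-fold). Lox read 6.74, 6.72 and 7.06 in tissue, between 8.84 and 9.22 in the first culture set and between 7.80 and 7.92 in the second. Its rise was 1.60 ± 0.33 (adjusted p = 0.0038), and a dimmer probe set, with a tissue mean of 5.72 in the bacterial control range, differed by 1.28 ± 0.35 (adjusted p = 0.016, or 0.098 with the random block). The size depended on the set: Lox differed from tissue by 2.17 with arrays 1 to 3 alone and by 1.02 with arrays 4 to 6 alone.

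Serpinh1, Pcolce and Sparc, which act on procollagen inside and outside the cell, were each at least 2-fold higher. Serpinh1, the gene of the collagen chaperone Hsp47, read 10.43, 10.73 and 10.41 in tissue, between 12.36 and 12.58 in the first culture set and between 11.98 and 12.00 in the second, a rise of 1.70 ± 0.15 (3.25-fold). A further probe set of Serpinh1 lay within the bacterial control range and did not pass (0.15 ± 0.06, adjusted p = 0.071). Pcolce, which speeds removal of the C-terminal propeptide, read 8.37, 8.39 and 8.49 in tissue and 9.45 to 9.78 in culture (median 9.61), a rise of 1.19 ± 0.07. Sparc, a collagen-binding glycoprotein, read 11.14, 11.57 and 11.31 in tissue and 12.44 to 12.69 in culture (median 12.52), a rise of 1.19 ± 0.09, and a further probe set rose by 1.54 ± 0.17. In all 3 genes the lowest culture array lay above the highest tissue array.

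Hsp47 is a heat shock protein dedicated to collagen, and its promoter is shown for that reason. The 140 bases before the start of Serpinh1 lie at chr1:163062977-163063116 on the minus strand of GRCr8 and are written in the direction of the gene. Capitals mark a GGGCGG match that begins 129 bases before the annotated start and a GAANNTTC match that begins 30 bases before it.
Serpinh1: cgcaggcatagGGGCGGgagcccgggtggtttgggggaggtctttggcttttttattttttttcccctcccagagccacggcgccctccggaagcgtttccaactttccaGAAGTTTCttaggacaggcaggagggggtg
GAANNTTC was present in 4 of the 13 processing windows (P4hb, Plod1, Plod2 and Serpinh1), in 2 of the 23 collagen windows and in 7.02% of all promoters. In the stretches printed no match overlapped another.

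**Figure D3:**
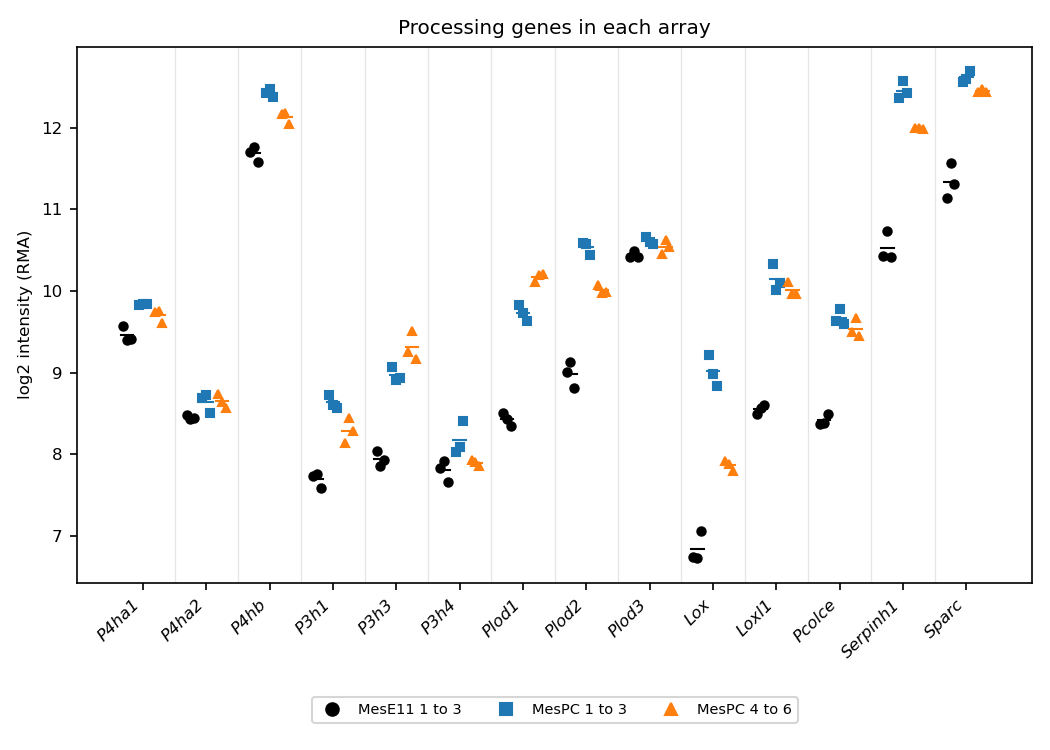
Log2 intensity of the 14 processing genes in every array, with black circles for MesE11, blue squares for MesPC replicates 1 to 3 and orange triangles for MesPC replicates 4 to 6; short lines are means of 3 arrays. All culture arrays lie above all tissue arrays for 12 genes, the sets of culture arrays part most for Lox, and Plod1 and P3h3 show the higher values in arrays 4 to 6.

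Some collagen genes are neighbours in the rat genome. With no other protein-coding gene between them in RefSeq's table, 4 pairs of the members stand side by side. Col3a1 and Col5a2 (5.56 and 1.70), Col4a1 and Col4a2 (2.19 and 2.11), and Col6a1 and Col6a2 (1.93 and 2.37) rose, and Col9a1 and Col19a1 (−0.28 and −0.27) fell. In the probe sets read, the sizes were close within the pairs except for Col3a1 and Col5a2. With the probe sets of a gene averaged, Col6a1 and Col6a2 rose by 1.93 and 1.12. The calls of Col9a1 and Col19a1 ended with the random block (adjusted p = 0.19 and 0.18). Whether neighbours change together was not tested.

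Further genes of the collagen pathway were counted in lists, to be read against the 21.9% of all genes called higher and 22.7% called lower (13.2% and 9.11% with the random block). Of 10 other modifying and folding genes measured 6 were higher and 2 lower (median 0.35), or 5 and 0 with the random block. Fkbp9 and Fkbp10, prolyl isomerases of the endoplasmic reticulum, rose by 1.19 ± 0.12 and 1.15 ± 0.19, and Ppib, cyclophilin B, by 0.47 ± 0.07. Crtap and Colgalt1, which were lower, changed by −0.28 ± 0.08 and −0.26 ± 0.08 (picked after their values were seen). For procollagen export 8 of 12 genes were higher and 0 lower (median 0.40), or 5 with the random block. Sec24d, a coat protein of the vesicles that carry procollagen, rose by 1.77 ± 0.08, from 7.52 to 9.30. Tmed10 rose by 0.84 ± 0.09 and Sec13 by 0.79 ± 0.08. Of 4 procollagen proteinase genes 2 were higher and 2 lower (median 0.10), and with the random block 1 and 0: Bmp1, which removes the C-terminal propeptide, rose by 1.62 ± 0.11, Furin by 0.40 ± 0.08, and Mep1b, within the bacterial control range, changed by −0.19 ± 0.05.

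Fibril-binding matrix proteins were higher in 8 of 12 cases and lower in 1 (median 0.97), led by the fibril-binding proteoglycans Lum (5.26 ± 0.13) and Dcn (2.32 ± 0.14) and by Postn (2.06 ± 0.10), which makes periostin. The tissue mean of Lum, 6.16, was inside the bacterial control range, so its difference is taken from a level near background. Basement membrane partners of type IV collagen were higher in 10 of 12 cases and lower in 0 (median 1.59). Lama2 and Lamb1, laminin chains, rose by 2.32 ± 0.10 and 1.90 ± 0.10, and Nid2, a nidogen that links laminin to type IV collagen, by 2.25 ± 0.12. Of 5 collagen receptor genes 4 were higher and 1 lower (median 0.70): Itgb1, the beta-1 integrin, rose by 1.35 ± 0.07, the receptor kinase gene Ddr1 by 0.90 ± 0.12, and Itga1, the alpha-1 integrin partner, changed by −0.78 ± 0.10. Of 10 genes of collagen-degrading enzymes and their inhibitors 6 were higher and 1 lower (median 0.68): the enzyme genes Mmp2, Ctsk and Fap and the inhibitor genes Timp1, Timp2 and Timp3 were higher, Mmp8 was lower, and Mmp9, Mmp13 and Mmp14 did not pass. With the random block 0 genes of this list and 0 of the fibril-binding list were lower, and leaving out 1 array at a time moved the lower counts of the modifying, proteinase and fibril-binding lists to between 0 and 2. Mmp2, a gelatinase, rose by 2.70 ± 0.17, Timp3, an inhibitor, by 1.28 ± 0.11, and Ctsk, the collagen-cleaving cathepsin, by 1.15 ± 0.11. Mmp8, Mmp9 and Mmp13 lay within the bacterial control range on every array.

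**Figure D4:**
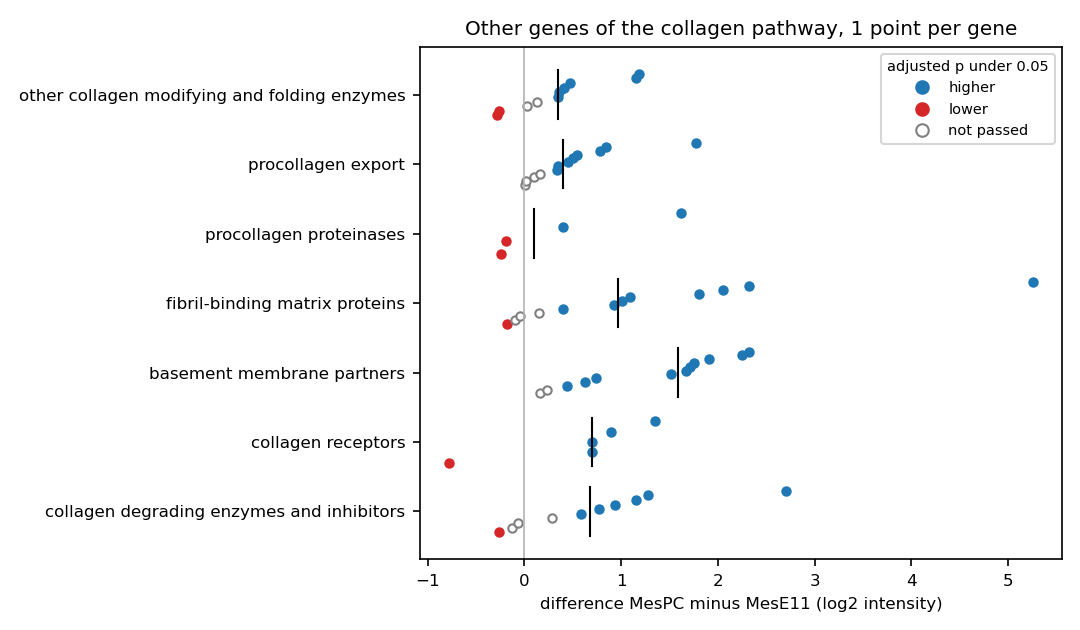
Difference between MesPC and MesE11 on the log2 scale for the measured genes of 7 further lists of the collagen pathway, 1 point per gene, with filled blue and red points for genes that passed as higher and lower, open points for those that did not, and a black bar at each list's median. The median is highest for the basement membrane partners (1.59) and lowest for the procollagen proteinases (0.10), and the rightmost point is Lum at 5.26, whose tissue level was near background.

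Markers of the cell types that could supply collagen moved in several directions, and their part in the collagen differences was not tested. Counts in this and the next paragraph are to be read against 21.9% of all genes higher and 22.7% lower. With the random block these shares were 13.2% and 9.11%. Some counts lie near those shares, such as pericyte and smooth muscle markers (15.4% higher and 30.8% lower). Of 18 fibroblast and meningeal markers other than collagens, 10 were higher and 4 lower (median 0.42), and the mean log2 level of the list ran from 8.33 to 8.37 over the tissue arrays and from 8.88 to 9.19 over those of culture. This list shares Dcn, Lum and Fn1, all among its higher genes, with the fibril-binding list. Slc6a13, a transporter of meningeal cells, and Pdgfra, a receptor of fibroblasts, rose by 2.03 and 1.81, while Crabp2 and Vcam1 changed by −4.19 and −1.29. Of 9 endothelial markers 0 were higher and 7 lower (median −0.79; 7.82 to 7.85 in tissue, 6.73 to 6.93 in culture), while 3 of 4 type IV collagen genes rose. Of 13 pericyte and smooth muscle markers 2 were higher and 4 lower (median −0.17; 7.78 to 7.96 in tissue and 7.52 to 7.90 in culture), with Rgs5 at −2.27, down to near background, and Tagln at 2.21. Astrocyte markers were higher in 6 of 10 cases and lower in 0 (median 0.43; 9.72 to 9.98 and 10.50 to 10.67).

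Beside the fall of Col2a1, 0 of 8 cartilage and bone markers were higher and 4 lower, or 0 lower with the random block (median −0.15; 6.87 to 7.01 in tissue and 6.61 to 6.85 in culture), and Acan, which makes the main cartilage proteoglycan, did not pass (−0.12 ± 0.10, adjusted p = 0.35; means 7.80 and 7.67). Comp, among the lower genes, is shared with the fibril-binding list. Comp, Ibsp and Bglap lay within the bacterial control range on every array, and the culture mean of Chad, 6.41, was also inside it. Schwann and neural crest markers were higher in 2 of 5 cases and lower in 2, or 0 with the random block (median −0.20; 7.65 to 7.83 and 8.09 to 8.36). Neuronal markers were lower in 6 of 10 cases (median −0.94; 12.09 to 12.20 and 10.41 to 11.60), ventral midbrain and dopaminergic markers in 6 of 10 with 2 higher (median −0.60; 8.88 to 8.96 and 7.90 to 8.52), erythroid markers in 5 of 5 (median −3.32; 10.81 to 11.21 and 6.70 to 7.16) and microglia and macrophage markers in 6 of 9, or 3 with the random block (median −0.31; 7.70 to 7.73 and 7.23 to 7.41). With the random block 5 neuronal and 5 ventral midbrain and dopaminergic markers were lower. With arrays 1 to 3 alone and 4 to 6 alone the neuronal median was −1.40 and −0.45. That of the ventral midbrain list was −0.65 and −0.38. The culture sets did not overlap for 10 of 10 neuronal and 7 of 10 ventral midbrain markers (48.4% of all genes), with arrays 4 to 6 higher in each. For fibroblast markers they did not overlap in 10 of 18, with arrays 1 to 3 higher in each. Single markers named here were picked after their values were seen. RMA gives every array nearly the same distribution, so each of these shifts is relative to the other probe sets of the array.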

How the data were processed

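RNA was hybridized to 9 Affymetrix rat arrays, 1 per sample (3 MesE11, 6 MesPC). The authors deposited log2 values made with RMA, per the submitters' processing notes; no version is given there, and the probe-level steps were taken as they stood. RMA equalizes the arrays, so every difference is relative, and dim genes are compressed toward background. Of 15923 probe sets, 57 controls were left out and 15866 tested; 12783 carried 1 gene symbol in the array's annotation and 312 several, and 2771 had none. limma 3.58.1 in R 4.3.3 (lmFit, eBayes, two-sided, Benjamini-Hochberg over all tested probe sets, threshold 0.05) compared MesPC with MesE11. Members and gene lists were chosen with earlier results of these data known, so their counts are descriptions. Every member is named; values by array are given for large changes and for the main chains and enzymes, and from each further list up to 3 called genes with the largest change and no overlap. Other picks are said to be so. Same-numbered arrays of the groups were checked for pairing, and r of their deviations from group means was −0.09 to 0.02. With culture deviations taken from the mean of arrays 1 to 3, r was −0.12 to 0.08. Which arrays share an embryo group is not known, so this check cannot exclude pairing. Alternatives were a second quantile normalization, median centring, a filter on dim probe sets, averaging each gene's probe sets, an intensity trend, blocks, each culture set alone and each array left out. Plots used matplotlib 3.10.9.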

Additional observations from a re-analysis of the deposited data

Results flagged for a closer look

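Among the 6 culture arrays, 2 of the 43 genes had 1 array far from the rest by Dixon's ratio; chance alone gives about 1 such group in 20. Col5a2 read 11.73 in MesPC replicate 1 and 11.49 to 11.58 in the other culture arrays, and rose by 1.67 without it. Col19a1 read 6.41 in MesPC replicate 4 and 6.62 to 6.70 in the others, and changed by −0.23 (adjusted p = 0.018) without it. The groups of 3 tissue arrays were too small for this check.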

How the results depend on the processing

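Counts of higher genes held within 1.5 times in each alternative run, at 14 to 18 for collagens and 10 to 13 for processing genes; the latter had 0 lower in each. Collagens called lower numbered 1 in place of 4 without the dimmest 40% of probe sets, under a second quantile normalization and with the random block. Leaving out 1 array at a time gave 15 to 16 collagens higher and 3 to 4 lower, 11 to 12 processing genes higher and 0 lower, and medians of 0.92 to 1.14 (fibrillar), 0.64 to 0.85 (network), 2.34 to 2.41 (beaded) and −0.20 to −0.17 (FACIT). The dim filter left 32 of 43 genes, and the medians over those left were 1.96 (network) and 0.79 (FACIT, turned in sign because only Col12a1 and Col9a2 stayed). The beaded median was 1.93 with probe sets averaged and 2.30 with culture arrays 4 to 6 alone, the fibrillar median 1.40 and 0.80 with arrays 1 to 3 and 4 to 6 alone, and the network median 1.21 and 0.29. The P4ha2 difference turned to −0.0077 (adjusted p = 0.91) when its probe sets were averaged, and Col26a1 to 0.19 (adjusted p = 0.024) with arrays 1 to 3 alone. With a replicate block, which can use only numbers 1 to 3, the fibrillar median was 1.40, 17 collagens were higher and 3 lower, and 12 processing genes higher; the arrays share only a number. Signal within the bacterial control range on every array limits Col4a4, Col10a1 and Col11a1. Both group means of Col8a2 and Col9a1 and the culture mean of Col19a1 also lay in that range.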
